A study of Mus musculus with 4 samples.

Results

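The genes described here were 8 genes of fatty acid uptake, storage and release, chosen by name from the 31053 genes of the deposited matrices: Cd36, Lpl, Fabp4, Fabp5, Plin2, Pparg, Lipa and Pnpla2. All 8 had UMI counts in the 4 libraries. A UMI is a molecular tag that marks 1 captured RNA molecule, so the counts below are counts of molecules. The cells came from hearts of 12-16 week-old CSF1R-EGFP+ mice, in which cells that use the Csf1r promoter carry a green reporter, and were sorted as EGFP-positive and Ly6G-negative. The baseline library was made from 3 hearts without surgery, pooled into 1 sample. Each of the 3 infarct libraries came from 1 heart, 7 days after a permanent, non-reperfused closure of the left coronary artery, and the remote, non-infarcted zone was cut away before digestion. The baseline animals were therefore neither sham-operated nor sampled one by one, and the region of the heart differed between the groups. No p-value is given for infarct against baseline for this reason.

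Macrophages take up fatty acids that are set free from lipoproteins by lipoprotein lipase or brought in by the scavenger receptor CD36, carry them inside the cell on small fatty acid binding proteins, and store the excess as neutral lipid in droplets coated by perilipins. Stored lipid is set free again by lipases at the droplet surface and in the lysosome. The nuclear receptor PPARγ binds fatty acids and switches on several of these genes, and heart endothelium uses the same uptake proteins to pass fatty acids to cardiomyocytes.

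The libraries held 10144 to 10804 cells, of which 10117 to 10782 passed the filter of 500 to 40000 UMIs and over 200 genes. The median depth was 6398.5 UMIs per cell at baseline and 8469.5 to 8556.5 in the infarct libraries, and pairs of libraries shared 26 to 34 cell barcodes. Cells were sorted into gates by UMIs of marker genes, none of which was one of the 8 genes. The 15 myeloid gates together held 8421 cells at baseline and 8867 to 9768 in each infarct library. Levels are given as CPM, the gene's UMIs scaled to 1000000 UMIs of the summed cells with mitochondrial genes left out. The macrophage genes Adgre1, Mertk, Cd68 and Csf1r summed to 1876 CPM in the baseline myeloid cells and to 1846, 2003 and 1890 CPM in infarct 1, 2 and 3, so the markers of the labelled cell type were present, beside smaller numbers of B cells, granulocytes, dendritic and endothelial cells. Depth and region both moved with the group and cannot be told apart from it.

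Fabp4 and Fabp5 both lie on mouse chromosome 3 (GRCm38), Fabp5 at chr3:10012548-10016607 on the plus strand and Fabp4 at chr3:10204088-10208576 on the minus strand, 187.48 kb apart. Their coding regions, 399 bases in Fabp4 and 408 in Fabp5, were identical at 66.4% of 387 aligned bases. The stretches below, from the reference transcripts of that build, show how far the coding regions of these 2 genes differ although they belong to 1 family, since the levels of these genes lay on opposite sides of baseline in the infarct. They start at coding base 163 of Fabp4 and 169 of Fabp5, and capitals mark the bases that differ, 45 of the 120 shown.
Fabp4: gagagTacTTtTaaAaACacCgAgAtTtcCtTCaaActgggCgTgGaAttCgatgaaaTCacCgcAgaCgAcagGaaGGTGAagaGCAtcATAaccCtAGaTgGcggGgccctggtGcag
Fabp5: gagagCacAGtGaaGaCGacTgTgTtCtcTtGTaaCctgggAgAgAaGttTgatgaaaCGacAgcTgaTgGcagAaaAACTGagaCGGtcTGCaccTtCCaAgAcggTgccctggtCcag
The other genes lie at chr5:17781690-17888801 (Cd36, minus strand), chr8:68880491-68907448 (Lpl, plus), chr4:86648386-86670060 (Plin2, minus), chr6:115360951-115490399 (Pparg, plus), chr19:34492318-34527474 (Lipa, minus) and chr7:141455198-141460743 (Pnpla2, plus).

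Over all myeloid cells, the infarct libraries held more Fabp5 and less Cd36 and Fabp4 than the baseline library. A gene was counted as higher or lower when the mean of the infarct libraries lay at least 2-fold from baseline (a log2 ratio of 1) and 3 of 3 infarct libraries lay on that side. By this rule 3 of the 8 genes differed, 1 higher and 2 lower, beside 9.51% of the 9251 genes whose mean reached 5 CPM. The median log2 ratio of those genes was -0.22, so a gene that kept its place among them lay a little below 0. In such sums, fewer cells of a type and less RNA per cell cannot be told apart, so the levels inside the gates follow further down.

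**Figure D1:**
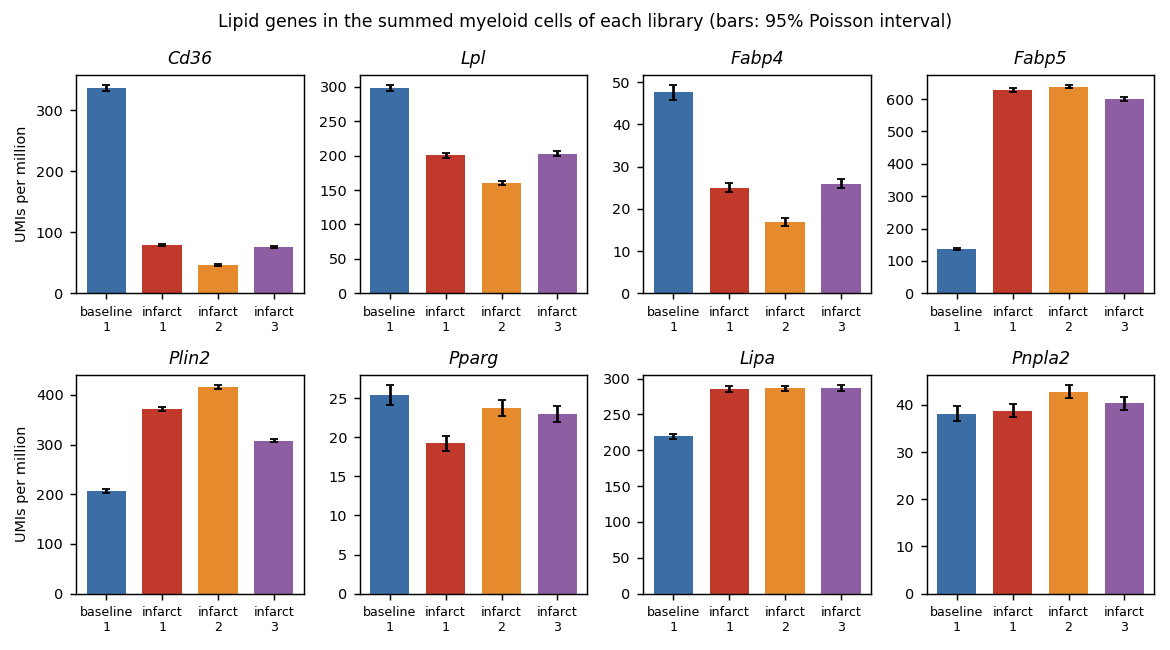
CPM of the 8 genes in all gated myeloid cells, with 1 coloured bar per library and its 95% Poisson interval as an error bar, on linear axes from 0 that differ between genes. The infarct bars lie above baseline for Fabp5 (599.9 to 638 against 137 CPM) and below it for Cd36 (47.0 to 79.4 against 337 CPM).

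Cd36, the scavenger receptor that takes up oxidised lipoproteins and long-chain fatty acids, stood at 337 CPM in the baseline library and at 79.4, 47.0 and 75.7 CPM in infarct 1, 2 and 3, a mean of 67.3 ± 17.7 CPM (SD, n = 3). All infarct libraries lay far below baseline, and the log2 ratio was -2.32. Lpl, the lipase that frees fatty acids from triglyceride-rich lipoproteins, stood at 298 CPM at baseline and at 200, 161 and 203 CPM in the infarct libraries (188 ± 23.7, SD, n = 3). The infarct libraries lay below baseline here too, but the log2 ratio of -0.67 was under the 2-fold limit.

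Of the binding proteins, Fabp4 stood at 47.6 CPM at baseline and at 25.1, 16.9 and 26.0 CPM in the infarct libraries (22.6 ± 5.01, SD, n = 3). Its log2 ratio was -1.07 and rested on infarct 2, since it was -0.90 without that library. Fabp5 stood at 137 CPM at baseline and at 627, 638 and 599.9 CPM in the infarct libraries (622 ± 19.7, SD, n = 3), a log2 ratio of 2.18. The infarct libraries lay close together and well above baseline.

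Plin2, which coats lipid droplets, stood at 207 CPM at baseline and at 371, 415 and 308 CPM in the infarct libraries (365 ± 53.7, SD, n = 3). The groups did not overlap, and the log2 ratio was 0.82. With TMM scaling, which moved the median of all genes up by 0.27, the ratio of Plin2 was 1.09 and passed the limit, while Fabp4 at -0.80 did not. Pparg, the nuclear receptor, stood at 25.3 CPM at baseline and at 19.2, 23.7 and 22.9 CPM in the infarct libraries, and its log2 ratio of -0.21 turned to 0.06 with TMM scaling. The lysosomal acid lipase Lipa stood at 219 CPM at baseline and at 285, 287 and 287 CPM in the infarct libraries (log2 ratio 0.38), and the droplet lipase Pnpla2 at 38.1 CPM and at 38.8, 42.8 and 40.3 CPM (0.09). Both lay within 2-fold of baseline.

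The same direction was seen in the share of cells with at least 1 UMI, after every cell was thinned to 2000 UMIs to equal the depth. Fabp5 was detected in 5.73% of the thinned baseline myeloid cells and in 28.2%, 31.6% and 30.4% of those of infarct 1, 2 and 3. Cd36 went the other way, from 38.4% at baseline to 9.82%, 5.36% and 9.20%. Thinning kept 8206 of 8421 baseline cells and 8728 of 9024, 9472 of 9768 and 8446 of 8867 infarct cells, and without it the shares were 13.9% and 50.1% to 53.9% for Fabp5 and 63.7% and 13.4% to 20.6% for Cd36. Fabp4 was detected in 7.07% of thinned baseline cells and in 2.24% to 3.27% of infarct cells.

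The shares in 2 gates that are not macrophages are given beside these. In cells gated as B cells, with a median depth of 3988.5 UMIs at baseline and 10123 to 11291 in infarcts, Fabp5 was detected in 1.87% of thinned baseline cells and in 30.9%, 25.0% and 16.0% of infarct cells. In type 2 dendritic cells (Cd209a, Flt3), with median depths of 9614 to 9917, the Fabp5 shares were 7.73% and 14.6%, 12.7% and 12.8%. The B cell gate also held 983 CPM of the 4 macrophage genes named above at baseline and 1337 to 1718 CPM in infarcts. The infarct values were near the level of the macrophages themselves. The shares and levels of this gate therefore do not measure free RNA alone in either group. The part of free RNA and mixed droplets in the Fabp5 values was not tested. For Cd36 the shares in type 2 dendritic cells were 2.27% at baseline and 0.40% to 1.33% in infarcts, far under the share of all baseline myeloid cells given above. The baseline level was 15.3 CPM in type 2 dendritic cells, 134 CPM in B cells and 407 CPM in the 10 cells gated as fibroblasts. The part of free RNA and mixed droplets in the Cd36 values was not tested.

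The gates differed widely in number between the groups. Resident macrophages (C1q genes with Lyve1, Cd163 or Timd4) numbered 3089 at baseline and 53, 66 and 79 in the infarct libraries, whereas macrophages with Gpnmb and high Spp1 numbered 56 and 804, 850 and 865. Macrophages with high MHC class II genes and no Gpnmb were numerous in all 4 libraries, with 2461 cells at baseline and 2532 to 3091 in infarcts. Cells with Saa3 or Arg1 numbered 13 at baseline and 1261, 205 and 667 in the infarct libraries, and non-classical monocytes (Ace, Treml4, Spn with low C1q) 978 and 100 to 128. The Saa3 Arg1 gate had no C1q cut-off and was filled before the monocyte gates, so it can hold monocytes. Its monocyte genes Plac8, Vcan and Chil3 summed to 741, 1147 and 337 CPM in infarct 1, 2 and 3. The macrophage genes named above summed there to 1590, 1329 and 1414 CPM. These numbers depend on the sort and on the region taken. The comparison inside a gate leaves the numbers aside, but a gate need not hold the same kind of cell in both groups. The cut-offs were counts of UMIs, and depth differed between the groups.

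Inside gates, Cd36 was lower in the infarct libraries and Fabp5 was mostly higher. The comparison was possible in the 11 gates with at least 50 cells in each of the 4 libraries, and 35 of the 88 pairs of gene and gate passed the limit of 2-fold with 3 of 3 libraries. The share of all genes that passed was 6.81% in resident macrophages, 8.15% in MHC class II-high, 11.0% in the other C1q-positive, 11.5% in Gpnmb-high Spp1-high, 14.8% in transitional Ly6c2-positive and 17.7% in interferon macrophages, 10.7% in cycling cells, 9.58% in classical and 8.24% in non-classical monocytes, 12.1% in type 2 dendritic cells and 32.6% in granulocytes.

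**Figure D2:**
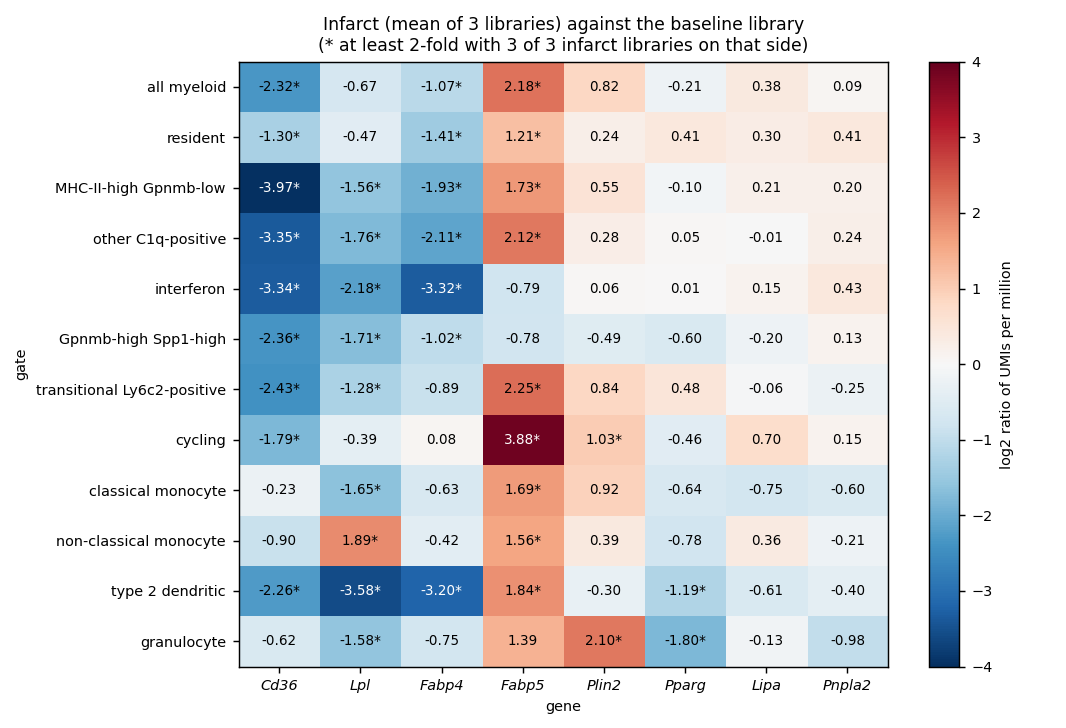
Log2 ratio of the mean of the 3 infarct libraries over the baseline library for the 8 genes (columns) in all myeloid cells and in 11 gates (rows), with an asterisk for the pairs that passed the 2-fold limit in 3 of 3 libraries. Cd36 is negative in all 11 gates and passes in 8 of them, and Lipa and Pnpla2 pass in none.

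Cd36 stood at 332 CPM in baseline MHC class II-high macrophages and at 30.0, 13.5 and 20.0 CPM in those of infarct 1, 2 and 3, a log2 ratio of -3.97. The infarct values were at the level of the B cell gate, which held 15.3 to 58.8 CPM, while the baseline value lay above the 134 CPM of baseline B cells. Resident macrophages held 430 CPM at baseline and 177, 81.8 and 265 CPM in the infarct libraries, a log2 ratio of -1.30. The few infarct cells in the resident gate held more Cd36 than the MHC class II-high cells beside them, but less than the resident gate of the baseline hearts. In that gate Trem2, Gdf15 and Cd9 summed to 375 CPM at baseline and to 768, 1107 and 1003 CPM in infarct 1, 2 and 3. Fn1 stood there at 99.2 CPM and at 807, 55.6 and 1187 CPM. In MHC class II-high macrophages Trem2, Gdf15 and Cd9 summed to 511 CPM at baseline and to 911, 1180 and 1082 CPM in infarct 1, 2 and 3. The median depth of those cells was 6181 UMIs at baseline and 8226 to 8408 in infarcts. Whether either gate held the same kind of cell in both groups was not tested. Gpnmb-high Spp1-high macrophages held 681 CPM at baseline, from 56 cells, and 167, 91.1 and 139 CPM in infarcts (log2 ratio -2.36). In classical monocytes (Ly6c2 with low C1q) the level was 32.9 CPM at baseline and 11.4 to 51.4 CPM in infarcts, and the ranges overlapped.

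Lpl was lower past the limit in 8 of the 11 gates. In MHC class II-high macrophages it stood at 425 CPM at baseline and at 151, 125 and 155 CPM in the infarct libraries (log2 ratio -1.56), and in Gpnmb-high Spp1-high macrophages at 1262 CPM and at 457, 319 and 385 CPM (-1.71). Type 2 dendritic cells went from 90.4 CPM to 13.4, 1.38 and 7.82 CPM (-3.58). B cells held 151 CPM at baseline and 217, 96.9 and 152 CPM in infarct 1, 2 and 3, so the MHC class II-high cells lay below the B cells of the same heart in infarct 1 and above them in infarct 2 and 3. Non-classical monocytes ran against this, with 57.2 CPM at baseline and 261, 201 and 173 CPM in the infarct libraries (1.89). That value rested on few cells: 17, 10 and 18 infarct monocytes had an Lpl UMI, and the 5 cells with the most held 81.6%, 95.1% and 75.2% of the UMIs. The share of thinned monocytes with an Lpl UMI was 6.08% at baseline and 6.67% to 8.33% in infarcts. Mixed droplets were not tested for here.

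Fabp4 was lower past the limit in 6 gates, among them resident macrophages (28.1 CPM at baseline and 9.81 to 11.7 CPM in infarcts) and MHC class II-high macrophages (34.0 CPM and 7.33 to 10.4 CPM). The baseline levels of both gates were no higher than the 38.8 CPM of baseline B cells, and the shares of thinned cells with a Fabp4 UMI were 4.04%, 4.68% and 4.67% in that order. The 8 endothelial genes summed to 10.7, 8.45 and 98.7 CPM in these 3 baseline gates, so the B cells are no like-for-like level, and the part of free RNA in the Fabp4 values was not tested. Higher stood the non-classical monocytes, with 213 CPM at baseline, 100, 153 and 222 CPM in the infarct libraries, and a Fabp4 UMI in 27.2% of thinned baseline cells. The infarct 3 monocytes lay above baseline and the other libraries below, so the ranges overlapped.

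Fabp5 was higher past the limit in 8 of 11 gates, but not in the gate that held the most of it at baseline. Gpnmb-high Spp1-high macrophages held 4018 CPM at baseline (95% Poisson interval 3889 to 4150, counting error only) and 2403, 2450 and 2185 CPM in the infarct libraries, a log2 ratio of -0.78. At baseline 54 of these 56 cells had a Fabp5 UMI, none of the 56 shared a barcode with an infarct library, and the 5 cells with the most held 34.0% of the UMIs. In MHC class II-high macrophages Fabp5 stood at 47.1 CPM at baseline and at 138, 182 and 147 CPM in the infarct libraries (1.73), and in type 2 dendritic cells at 39.1 CPM and at 147, 152 and 120 CPM (1.84). In B cells it stood at 17.8 CPM at baseline and at 369, 762 and 464 CPM in infarcts. The MHC class II-high, resident, non-classical and type 2 dendritic gates lay below the B cells of the same heart in each infarct library. C1q-positive macrophages that met no other gate stood at 76.9 CPM at baseline and at 317, 383 and 300.1 CPM in infarcts (2.12). The infarct levels were also below the B cells of each heart, with 26.1% to 31.4% of thinned cells positive beside 16.0% to 30.9% of the infarct B cells. This gate could hold cells with Gpnmb under the cut-off of 2 UMIs. Trem2, Gdf15 and Cd9 summed there to 853 CPM at baseline and to 1507, 1704 and 1511 CPM in infarct 1, 2 and 3. Cycling cells had the largest ratio, 3.88, with 44.1 CPM at baseline and 969, 358 and 618 CPM in infarct 1, 2 and 3, above the B cells in infarct 1 and 3 and below them in infarct 2. The part of free RNA and mixed droplets in these differences was not tested. In the interferon gate, 5 of 53 baseline cells held 99.2% of the Fabp5 UMIs and 98.5% of the Fabp4 UMIs, so neither baseline level speaks for the gate.

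Plin2 passed the limit in cycling cells (168 CPM at baseline and 327 to 356 CPM in infarcts, log2 ratio 1.03) and in granulocytes (75.6 CPM and 181 to 583 CPM, 2.10). In MHC class II-high macrophages it stood at 187 CPM and at 272, 332 and 216 CPM, above baseline in 3 of 3 libraries but under the limit. Infarct B cells held 276 to 317 CPM and baseline B cells 80.9 CPM. Pparg passed in 2 gates, both lower: type 2 dendritic cells (9.90 CPM and 3.44 to 5.87 CPM) and granulocytes. The granulocyte value rests on 3 baseline UMIs and on 2, 1 and 1 UMIs in infarct 1, 2 and 3, and the infarct mean of 3.26 CPM lay inside the baseline 95% Poisson interval of 2.34 to 33.1 CPM. Lipa and Pnpla2 passed in none of the 11 gates.

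Markers of other heart cells moved with the group, and their part in these differences was not tested. The 8 endothelial genes summed to 65.3 CPM over all baseline cells and to 13.9 to 14.9 CPM over all infarct cells. Within the myeloid gates, which exclude every cell with a Cdh5 UMI, they summed to 13.1 and to 7.46 to 9.29 CPM. The 8 cardiomyocyte genes summed to 78.9 CPM in baseline myeloid cells and to 31.6 to 58.6 CPM in infarct ones, the 6 fibroblast genes to 127 and to 191 to 206 CPM, and the 7 adipocyte genes to 0.228 and to 0.125 to 0.428 CPM. Adipocyte markers were thus near 0 in both groups, though adipocytes use Fabp4, Cd36, Lpl and Pparg heavily.

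Endothelial cells were set apart by a Cdh5 UMI, Cdh5 being the cadherin of endothelial junctions. At baseline 210 cells carried one, and they held 62.3% (95% exact interval 61.3% to 63.2%) of all Fabp4 UMIs and 7.33% of all Cd36 UMIs in the library. In infarct 1, 2 and 3 there were 71, 71 and 66 such cells, with 19.0%, 27.7% and 16.5% of the Fabp4 UMIs and 2.32%, 2.62% and 1.80% of the Cd36 UMIs. Many of them were not endothelial by their other genes: the median number of C1q UMIs was 54 in infarct 1 against 2 at baseline. With at least 2 further endothelial genes required, 119 cells were left at baseline and 12, 9 and 9 in the infarct libraries.

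In those stricter endothelial cells Fabp4 stood at 12530 CPM at baseline and at 5413, 6899 and 5584 CPM in infarct 1, 2 and 3, and Cd36 at 3045 CPM and at 753, 966 and 696 CPM. Fabp4 was detected in 117 of 119 baseline cells and in 11 of 12, 7 of 9 and 9 of 9 infarct cells. The infarct levels rest on 9 to 12 cells each. In cells without a Cdh5 UMI, Fabp4 stood at 57.5 CPM at baseline and at 24.8, 19.2 and 27.0 CPM in the infarct libraries, and Cd36 at 328 CPM and at 80.3, 48.7 and 77.9 CPM. For Fabp4, therefore, most baseline UMIs came from a small endothelial fraction of the sort, while most Cd36 UMIs came from other cells.

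**Figure D3:**
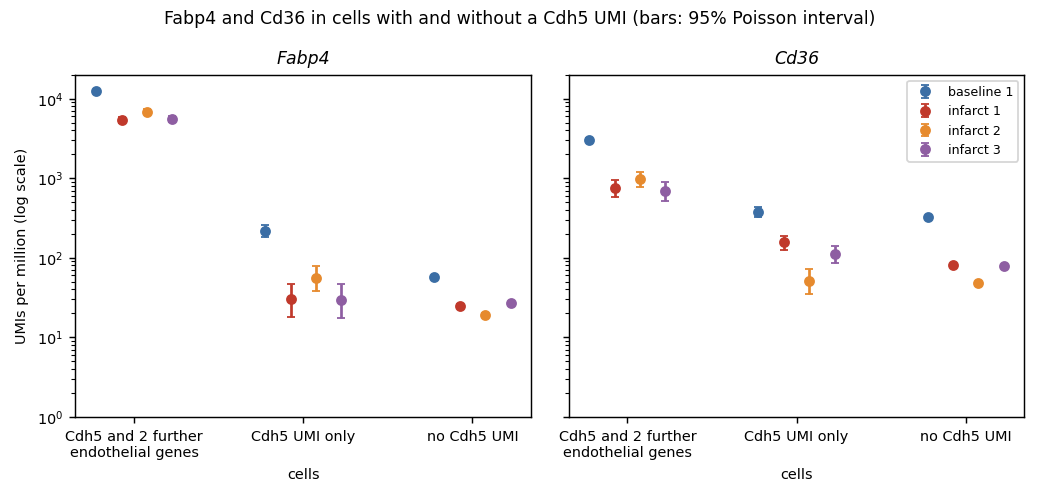
Fabp4 and Cd36 in endothelial cells (a Cdh5 UMI and at least 2 further endothelial genes) and in cells without a Cdh5 UMI, with the cells that have a Cdh5 UMI but fewer further endothelial genes between them, in CPM on a log axis, as 1 point per library with 95% Poisson intervals. Fabp4 lies at 5413 to 12530 CPM in the endothelial cells and at 19.2 to 57.5 CPM in the others.

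Among the infarct libraries, which are 3 separate hearts, each gate could be tested against all other myeloid cells of the same hearts. Counts were summed per library and compared by edgeR with the library as a block, at an adjusted p of 0.01 over all genes tested. An SE given with a fold change is the size of that log2 fold change divided by the square root of the test's F statistic. It comes from the fit, and neither it nor a p-value measures the spread between the 3 hearts. Of 112 pairs of gene and gate, 76 differed, 23 higher and 53 lower, and 42 of them did so under each of the 11 other settings tried. In the thinned setting the cells were also gated anew, with the UMI cut-offs divided by 4 and rounded up. Gate membership therefore changed there together with depth. The shares of thinned cells kept the gates of the full counts. In these gates 9.69% to 32.6% of all genes tested differed. Without the library block 50 differed.

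**Figure D4:**
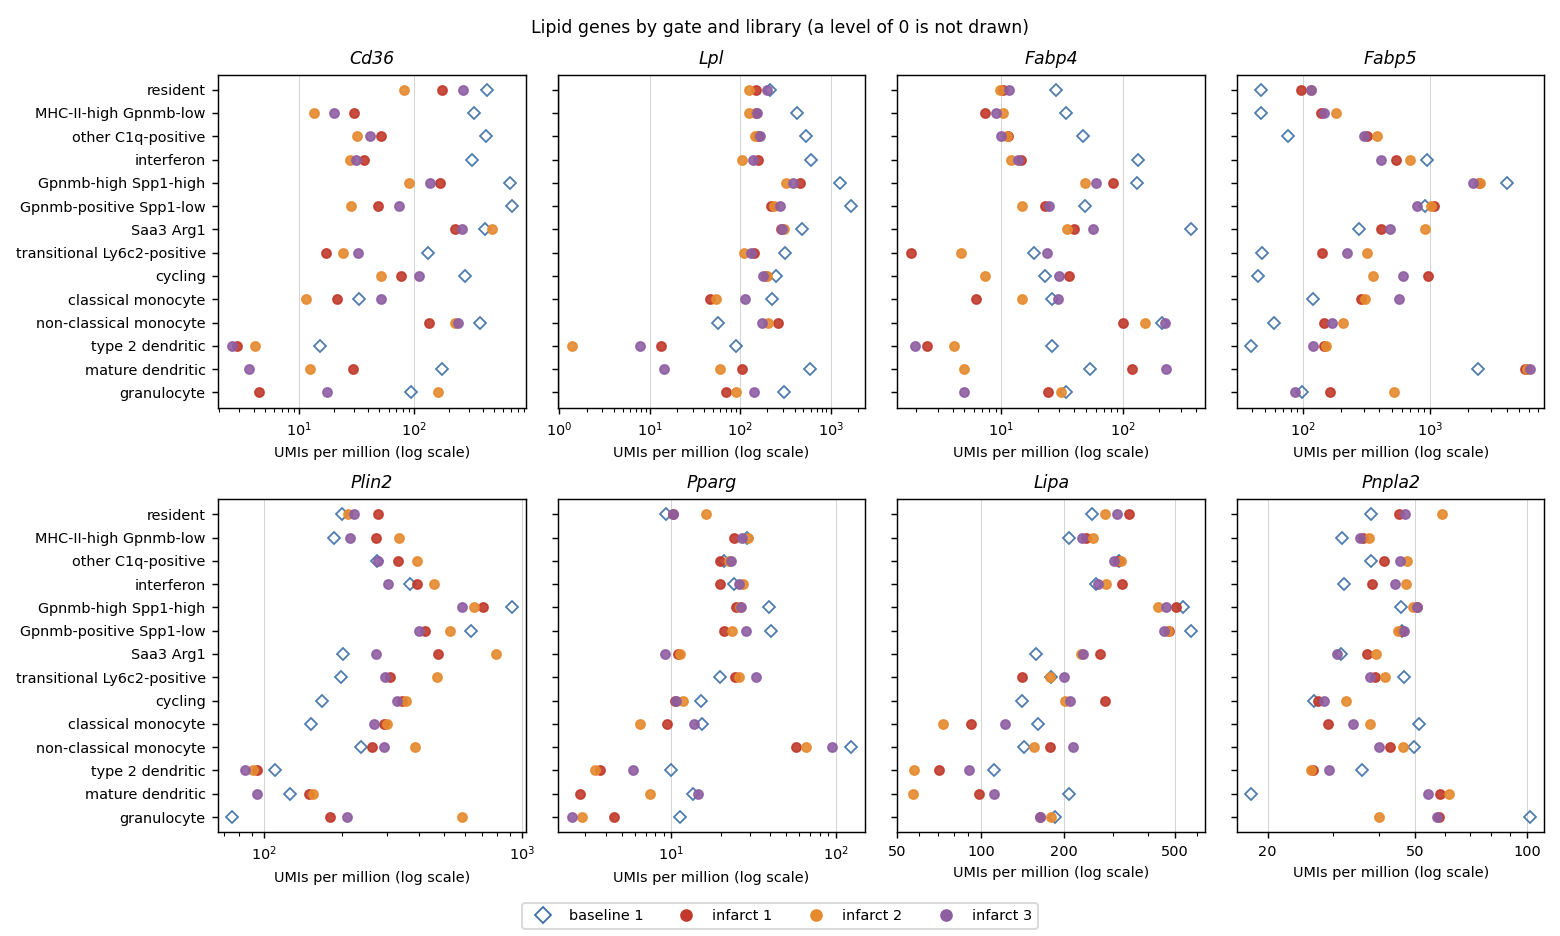
CPM of the 8 genes (panels, log axes) in 14 myeloid gates, with 1 filled point for each infarct library and an open diamond for the baseline library; a level of 0 is not drawn. Among the infarct points Fabp5 is highest in mature dendritic cells (5561 to 6145 CPM) and in Gpnmb-high Spp1-high macrophages (2185 to 2450 CPM), and Pparg in non-classical monocytes.

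Gpnmb-high Spp1-high macrophages held more of all 8 genes than the other myeloid cells of the infarct, where 26.6% of the 12956 genes tested differed. Fabp5 stood out, at 2346 ± 141 CPM (SD, n = 3) against 379 ± 23.1 CPM, a log2 fold change of 2.72 (SE 0.04, edgeR adjusted p = 2.88e-11). Fabp4 was higher by 2.03 (SE 0.11, edgeR adjusted p = 2.73e-07), from 16.8 to 64.2 CPM. Lpl was higher by 1.36, Cd36 by 1.27, Plin2 by 1.10 and Lipa by 0.94 on the log2 scale. All of these were higher in 3 of 3 hearts. The changes of Pnpla2 (0.44) and Pparg (0.37) were small, and the call of Pnpla2 was lost after thinning (edgeR adjusted p = 0.06). The call of Pparg was lost under 5 of the 11 other settings, among them the fit without infarct 3 (edgeR adjusted p = 0.0165).

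The gate was a small part of the cells and a large part of the Fabp5. In infarcts it made up 9.12 ± 0.558% of the gated myeloid cells (SD, n = 3) and held 46.6 ± 2.16% of their Fabp5 UMIs, 35.0 ± 4.66% of the Fabp4 UMIs, 25.4 ± 2.39% of the Lpl UMIs and 14.6% of the Pparg UMIs. At baseline 0.665% of the myeloid cells fell into it and held 44.0% of the Fabp5 UMIs. These cells were also deeper, with medians of 11546 to 11995 UMIs in infarcts and 17165 at baseline, so a share of UMIs runs ahead of a share of cells for any gene.

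Set directly against MHC class II-high macrophages of the same hearts, where 30.6% of 11558 genes differed, Gpnmb-high Spp1-high macrophages held more of 7 of the 8 genes. Fabp5 was higher by 3.94 on the log2 scale (SE 0.07, edgeR adjusted p = 3.20e-11), from 156 ± 23.2 to 2346 ± 141 CPM. Fabp4 was higher by 2.84 (SE 0.17), Cd36 by 2.68 (SE 0.06), Lpl by 1.44, Plin2 by 1.28, Lipa by 0.97 and Pnpla2 by 0.48, the last losing its call after thinning (edgeR adjusted p = 0.0148). Pparg was the exception, at 25.8 against 26.9 CPM (log2 fold change -0.04, SE 0.07, edgeR adjusted p = 0.727). The RNA of the receptor did not differ detectably between these gates while that of the genes of uptake and storage did. The activity of the receptor was not tested.

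**Figure D5:**
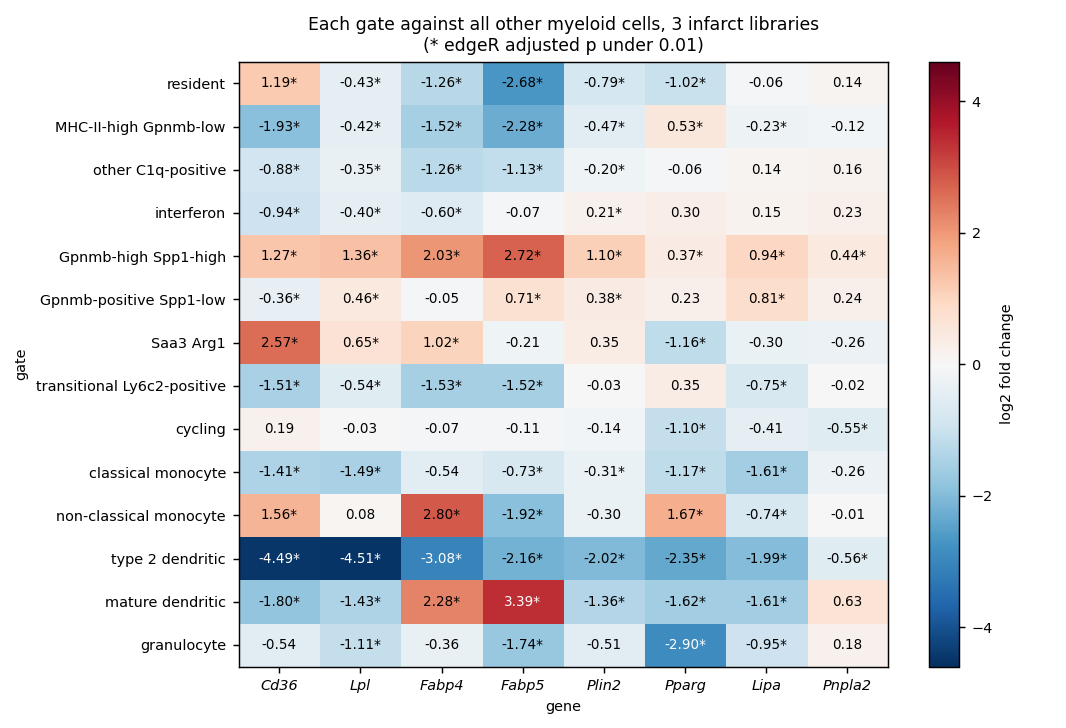
Log2 fold change of the 8 genes (columns) in each of 14 gates (rows) against all other myeloid cells of the 3 infarct libraries, by edgeR with the library as a block, with an asterisk for an adjusted p under 0.01. The row of Gpnmb-high Spp1-high macrophages is positive throughout (0.37 to 2.72) and that of type 2 dendritic cells negative throughout (-4.51 to -0.56).

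Mature dendritic cells (Ccr7, Fscn1, Ccl22) held the highest Fabp5 level of the 14 gates, at 5561, 5824 and 6145 CPM in infarct 1, 2 and 3, without overlap with the next gate. The log2 fold change against the other myeloid cells was 3.39 (SE 0.14, edgeR adjusted p = 4.48e-121, background 22.4%), and 83.9% to 86.7% of thinned cells had a Fabp5 UMI. The libraries held 89, 51 and 33 such cells. At baseline 18 cells held 2385 CPM, and 5 of them 81.5% of the UMIs. 5 of the other genes were lower in this gate: Cd36 (-1.80), Lipa (-1.61), Pparg (-1.62), Lpl (-1.43) and Plin2 (-1.36), each in 3 of 3 hearts. Pnpla2 stood at 58.0 ± 3.74 CPM and was not called (log2 fold change 0.63, edgeR adjusted p = 0.0112). The Pparg call rested on 9 UMIs and was lost without infarct 1 (edgeR adjusted p = 0.167) and without infarct 2 (0.0257). Fabp4 stood at 119, 4.93 and 227 CPM from 13, 2 and 4 cells with a UMI, and its call was lost with DESeq2 (adjusted p = 0.326).

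Saa3 Arg1 cells held the highest mean Cd36 level of the infarct gates, at 228, 476 and 262 CPM (322 ± 134, SD, n = 3), although the range overlapped that of non-classical monocytes. Against the other myeloid cells Cd36 was higher by 2.57 on the log2 scale (SE 0.28, edgeR adjusted p = 0.000136, background 20.9%). The gate held 31.4 ± 5.52% of the myeloid Cd36 UMIs with 7.86 ± 5.94% of the cells. Fabp4 (1.02) and Lpl (0.65) were higher too, and Pparg was lower by 1.16 on that scale in 3 of 3 hearts. Fabp5 (602 ± 268 CPM) and Plin2 (512 ± 262 CPM) varied so much between the hearts that neither difference was called, and each call turned on 1 library: Fabp5 was lower without infarct 2 (-0.53, edgeR adjusted p = 0.000552), and Plin2 was higher without infarct 3 (0.63, 0.00268).

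Non-classical monocytes combined high Fabp4, Pparg and Cd36 with low Fabp5. Fabp4 was higher by 2.80 on the log2 scale (SE 0.14, edgeR adjusted p = 1.41e-82, background 18.4%), at 158 ± 60.9 CPM against 21.6 CPM. Pparg stood at 57.4, 66.0 and 94.6 CPM in infarct 1, 2 and 3, higher by 1.67 (SE 0.18, edgeR adjusted p = 4.04e-19), and at 125 CPM at baseline. It was the gate with the most Pparg and did not overlap with the next one. Cd36 was higher by 1.56 at 201 ± 57.6 CPM, Fabp5 was lower by 1.92 and Lipa by 0.74, the last losing its call without infarct 1 (edgeR adjusted p = 0.0172). At baseline, the monocytes made up 11.6% of the gated myeloid cells and held 34.0% of their Fabp4 and 37.5% of their Pparg UMIs. The endothelial genes summed to 43.5 CPM in these monocytes at baseline and to 18.5 to 59.4 CPM in infarcts, above the 7.46 to 9.29 CPM of all infarct myeloid cells, and their part in the Fabp4 level was not tested.

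Resident macrophages of the infarct, 53 to 79 cells per heart, held more Cd36 than the other myeloid cells (175 ± 91.6 CPM, log2 fold change 1.19, SE 0.12, edgeR adjusted p = 5.43e-21, background 9.81%), a call that was lost without the library block (adjusted p = 0.0423). They held less Fabp5, at 109 ± 11.0 CPM, the lowest of the 14 gates (log2 fold change -2.68, SE 0.11). Fabp4 (-1.26), Pparg (-1.02), Plin2 (-0.79) and Lpl (-0.43) were lower there too, while Lipa (-0.06) and Pnpla2 (0.14) were not called. The calls of Fabp4, Pparg and Lpl in this gate were lost without the block (adjusted p = 0.0438, 0.0460 and 0.133). They were also lost without infarct 1 (edgeR adjusted p = 0.0176, 0.0347 and 0.124), for Pparg and Lpl without infarct 2 (0.0269 and 0.0261), and for Fabp4 and Pparg without infarct 3 (0.0385 and 0.163). MHC class II-high macrophages were lower in Fabp5 (-2.28), Cd36 (-1.93), Fabp4 (-1.52), Plin2 (-0.47), Lpl (-0.42) and Lipa (-0.23) and higher in Pparg (0.53, SE 0.05, edgeR adjusted p = 1.04e-05), with 25.2% of genes called. The calls of Plin2, Lpl, Lipa and Pparg in this gate were lost without the block (adjusted p from 0.0391 to 0.161), and that of Lipa also without infarct 1 (0.0112). Type 2 dendritic cells were lower in all 8 genes (background 32.6%), down to 3.20 ± 0.820 CPM for Cd36 and 7.55 ± 6.03 CPM for Lpl, and Pnpla2 (-0.56) lost its call without infarct 1 (edgeR adjusted p = 0.0102).

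Gpnmb-positive macrophages with low Spp1 were higher in Lipa (0.81), Fabp5 (0.71), Lpl (0.46) and Plin2 (0.38) with 11.8% of genes called, and Fabp5 there stood at 962 ± 149.8 CPM (SD, n = 3), below the Gpnmb-high Spp1-high gate. C1q-positive macrophages that met no other gate were lower in Fabp4 (-1.26), Fabp5 (-1.13), Cd36 (-0.88), Lpl (-0.35) and Plin2 (-0.20), beside 24.5% of genes. Transitional Ly6c2-positive cells were lower in Fabp4 (-1.53), Fabp5 (-1.52), Cd36 (-1.51), Lipa (-0.75) and Lpl (-0.54), beside 9.69%. Classical monocytes were lower in 6 of the 8 genes, from Lipa (-1.61) to Plin2 (-0.31), beside 28.1%. In the interferon gate (12.3%) Cd36, Fabp4 and Lpl were lower and Plin2 was higher by 0.21, in granulocytes (11.7%) Pparg (from 4 UMIs in all), Fabp5, Lpl and Lipa were lower, and in cycling cells (26.9%) Pparg (-1.10) and Pnpla2 (-0.55) were lower. Of these, Fabp4 in transitional cells and Plin2 in the interferon gate lost their call without infarct 1 (edgeR adjusted p = 0.0103 and 0.0336), Plin2 in the interferon gate also without infarct 2 (0.0245) and in the other C1q-positive macrophages without infarct 3 (0.0336). Fabp5 in classical monocytes lost it without infarct 1 (0.0177), Plin2 there without infarct 1 (0.0177) or 2 (0.0724), and Pnpla2 in cycling cells without infarct 3 (0.0129).

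The lists of lipid genes, which held the 8 genes too, did not move as a block. In infarct against baseline myeloid cells, 4 of the 14 measured genes of uptake and binding passed the 2-fold limit: Fabp5 and Slc27a1 (log2 ratio 1.70), a fatty acid transporter, were higher, and Cd36 and Fabp4 lower. Of 8 measured genes of the droplet coat and triglyceride synthesis 1 was higher, Hilpda (1.68), which encodes a droplet protein induced by hypoxia that inhibits the droplet lipase. None of the 6 genes of lipolysis, 5 of the PPAR family, 16 of fatty acid oxidation and 8 of synthesis and desaturation passed. Over all 9251 genes, 216 were higher and 664 lower. The list medians lay between -0.38 (uptake and binding) and 0.25 (droplet), beside -0.22 over all genes.

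In Gpnmb-high Spp1-high macrophages against the other infarct myeloid cells, 9 of 16 oxidation genes were higher and none lower, as were 6 of 12 droplet genes with 1 lower, beside 1559 higher and 1885 lower of the 12956 genes tested. Of the uptake and binding genes 8 of 17 were higher and 3 lower, and of lipolysis 3 of 7 and 2. Of the PPAR family 1 of 5 was higher and 0 lower, and of synthesis and desaturation 1 of 10 and 3. The higher calls include Cd36, Lpl, Fabp4 and Fabp5 in uptake and binding, Plin2 among the droplet genes, and Lipa and Pnpla2 in lipolysis. The PPAR family call was Pparg itself. These counts are thus partly the results for the 8 genes given above. The list medians were 0.26 for oxidation, 0.47 for the droplet genes and -0.50 for synthesis, beside -0.02 over all genes. Next to Fabp5 and Fabp4, the highest was Angptl4 (2.04), which encodes a secreted inhibitor of lipoprotein lipase and a known PPAR target. The lowest were G0s2 (-2.72), an inhibitor of the droplet lipase, Dgat2 (-1.50), which makes triglyceride, and Fasn (-1.22), the fatty acid synthase.

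The promoters of 5 of the 8 genes were in the RefSeq table of GRCm38.p6. The motif AGGTCA, the core element bound by PPAR and related nuclear receptors, was searched on both strands in the 250 bases before the start. It was found in 14.0% of all 32851 promoter windows, and in those of Cd36 and Plin2 and in 2 of the 3 windows of Pparg, but not in those of Lipa and Pnpla2. The paired form AGGTCANAGGTCA was in 0.0335% of windows and in none of these genes. The windows of Plin2 and Cd36 are shown because these genes of storage and uptake lay on opposite sides of baseline in the infarct and both hold the core motif, written in capitals. The Cd36 window lies inside the span of the gene, chr5:17781690-17888801, and not beyond its outer start at 17888801.
Plin2, chr4:86670060-86670309, minus strand: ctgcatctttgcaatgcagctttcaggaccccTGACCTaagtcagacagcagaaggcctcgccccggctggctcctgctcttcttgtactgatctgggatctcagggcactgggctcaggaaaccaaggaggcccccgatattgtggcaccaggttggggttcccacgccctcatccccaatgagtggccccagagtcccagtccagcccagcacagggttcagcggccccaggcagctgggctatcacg
Cd36, chr5:17835897-17836146, minus strand: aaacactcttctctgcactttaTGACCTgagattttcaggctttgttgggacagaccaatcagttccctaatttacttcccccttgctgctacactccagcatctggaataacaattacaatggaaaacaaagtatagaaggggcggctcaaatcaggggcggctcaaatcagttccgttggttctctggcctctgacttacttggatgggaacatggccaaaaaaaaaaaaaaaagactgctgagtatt
In both windows the motif lies on the opposite strand, so it reads TGACCT. A match is a description of the letters and not of binding.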

How the data were processed

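Per the labels and the study's methods, EGFP+ Ly6G- cells were sequenced with the 10x 3' v3.1 kit. The authors deposited raw UMI counts per gene and cell from Cell Ranger on mm10, with version 3.0.1 in the submitters' processing notes and 3.1.0 in the file headers. No deposited annotation of cells was used. The 8 genes and the lists of lipid genes were chosen with earlier results of these data known, and the cut-offs of the gates were set from the levels of the gate genes. Each cell went to the first gate it met, and cells with fewer than 10 C1q UMIs and no other gate were left out of the myeloid sums. These numbered 1476 at baseline, with a median of 1361 UMIs, and 1201, 887 and 1054 in infarct 1, 2 and 3. They held 707 CPM of Fabp5 at baseline and 806, 572 and 924 CPM in the infarct libraries. For Lpl the values were 816 CPM and 234, 187 and 256 CPM. Doublets were not called, and leaving out the 5% of cells with most UMIs was an alternative.

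Counts were summed per library and gate (Python 3.11.15, scipy 1.17.1). Gates with at least 20 cells in each infarct library were tested with edgeR 4.0.16 (R 4.3.3, quasi-likelihood test, TMM, filterByExpr) and Benjamini-Hochberg adjustment over all genes. Both sums of a pair came from the same animal, and their deviations correlated at 0.565, 0.523 and 0.660 over genes within libraries and at -0.446 to -0.129 between them. The fit recovered changes planted in simulated counts. These counts had no heart effect and used dispersions estimated from the same sums, so they cannot show how the fit handles real differences between hearts. DESeq2 1.42.0, other scalings and filters, thinning and left-out libraries were alternatives. The rule for named genes was the 8 genes, the 3 highest and 3 lowest lipid list genes called in a comparison and the 3 genes most correlated with each of the 8. The plots show all 8 genes in each gate, the text does not name each of them in each gate, and list genes are given for the main comparisons only. Intervals cover counting error only. Positions came from a GRCm38 annotation.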

Additional observations from a re-analysis of the deposited data

Results flagged for a closer look

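Lpl was flagged because its infarct level lay above baseline in 3 of 3 libraries in non-classical monocytes and below it in 3 of 3 libraries in other gates. The log2 ratio of infarct over baseline was 1.89 in non-classical monocytes. It was -2.18 in the interferon gate, -1.71 in Gpnmb-high Spp1-high macrophages, -1.28 in transitional Ly6c2-positive cells, -1.56 in MHC class II-high macrophages and -1.76 in the other C1q-positive macrophages. It was -1.65 in classical monocytes, -3.58 in type 2 dendritic cells and -1.58 in granulocytes. The difference between gates was not tested, since baseline is 1 library, and the value in non-classical monocytes rests on 10 to 18 cells with an Lpl UMI per infarct library.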

How the results depend on the processing

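The baseline group is 1 library, so no setting gives its spread between hearts. Over all myeloid cells, 3 of the 8 genes passed the 2-fold limit with each of TMM scaling, thinning, the filters on depth, mitochondrial UMIs and deep cells, all cells of a library and the mean over cells, and 2 to 3 did with 1 infarct library left out; the 3 genes with TMM scaling were not the same. Within gates 35 pairs passed, 36 with TMM scaling, 40 after thinning and 35 to 41 with 1 library left out. Of the 76 gate differences, 50 were called with no replicate block, 68 with DESeq2's test, 70 after thinning and 65 to 74 with 1 library left out, and the block is kept since both sums come from 1 heart. The direct comparison called 7 genes, 6 after thinning and 7 with any 1 library left out. With 2 further endothelial genes required, 61.0% of baseline Fabp4 and 6.38% of Cd36 UMIs lay in endothelial cells. Some values reversed after thinning, where the cells were also gated anew: Fabp4 in the interferon gate between groups (0.57, from -3.32), Plin2 in the other C1q-positive macrophages (0.053, from -0.20) and Lpl in non-classical monocytes (-0.86, from 0.08). Cd36 in Gpnmb-positive Spp1-low macrophages was 0.091, from -0.36, against C1q-positive macrophages alone. The cause of these changes was not tested.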

Other observations

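Within the gated myeloid cells, thinned to 2000 UMIs, Lpl was seen more often in cells with a Cd36 UMI. It was detected in 40.1%, 27.8% and 39.6% of Cd36-positive cells and in 15.6%, 14.5% and 16.9% of the others in infarct 1, 2 and 3, against 27.9% and 22.6% at baseline. Plin2 was detected in 50.4%, 52.6% and 46.4% of Fabp5-positive and in 37.6%, 41.0% and 31.8% of Fabp5-negative infarct cells, and in 36.2% and 25.2% at baseline. Cells of 1 library are not replicates, and these shares pool the gates.

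Over 52 pairs of library and gate with at least 50 cells, the genes closest to Lipa in log2 level were Man1c1 (Pearson r = 0.90), Ctsb (0.89) and Rcbtb2 (0.88). The closest to Plin2 were Atp6v1a (0.86) Tmem65 (0.86) and Ftl1 (0.86). The closest to Lpl were Cd84 (0.82), Fmn1 (0.78) and Myof (0.77), to Cd36 Pdcd6ip (0.82), Man2a1 (0.79) and Pikfyve (0.77), and to Fabp5 Anxa4 (0.83), Il7r (0.82) and Mthfs (0.76). The closest to Pparg were Havcr2 (0.81), Sat1 (0.81) and Evl (0.77), to Pnpla2 Ankrd12 (0.74), N4bp2l1 (0.73) and Abtb1 (0.71), and to Fabp4 Slain2 (0.69), Nln (0.63) and Slc12a2 (0.63). Among the 8 genes, r was 0.74 for Lpl and Lipa, 0.72 for Cd36 and Lpl, 0.68 for Plin2 and Lipa, 0.68 for Fabp4 and Cd36, 0.23 for Fabp4 and Fabp5 and 0.00 for Fabp5 and Cd36. The points share libraries and depth.

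In infarct Saa3 Arg1 cells, the lipid list genes called with the highest log2 fold change were Fabp7 (3.82), Cd36 (2.57) and Acly (2.15). Fabp7 is a binding protein, and Acly makes acetyl-CoA for lipid synthesis. The lowest were G0s2 (-2.05), Acsl3 (-1.39) and Fads1 (-1.20). In non-classical monocytes the highest were G0s2 (3.95), Dgat2 (3.35) and Fabp4 (2.80) and the lowest Slc27a1 (-2.02), Fabp5 (-1.92) and Fads1 (-1.75). In MHC class II-high macrophages the highest were Acsl3 (0.56), Pparg (0.53) and Fads1 (0.36) and the lowest G0s2 (-3.76), Fabp7 (-3.63) and Fabp5 (-2.28). Each was called by edgeR at an adjusted p under 0.01 against all other myeloid cells. In the direct comparison with MHC class II-high macrophages, the list genes called lowest in Gpnmb-high Spp1-high macrophages were Fasn (-1.13), Acsl3 (-0.82) and Lipe (-0.62).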
